A study of Oryza sativa with 4 samples.

Results

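Regions of histone H4 lysine 5 acetylation (H4K5ac) that were called as 1 peak in well-watered rice leaves and as 2 or more separate peaks in drought-stressed leaves numbered 497. This was 1.73% of the 28794 well-watered peaks on chromosomes 1 to 12. They were chosen by the deposited peak positions alone: a well-watered peak was taken as divided when at least 2 drought-stressed peaks overlapped it by at least 1 bp. Nearly all of them, 482, met 2 drought-stressed peaks, 14 met 3 and 1 met 4. The drought-stressed peaks over a divided peak are called its fragments below. The existence of a gap, the width of the pieces and the share of the region left uncovered all follow from how the regions were chosen, so these values describe them and carry no test.

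H4K5ac neutralises a positive charge on the tail of histone H4. Histone acetyltransferases place it, deacetylases remove it, and proteins with bromodomains bind acetylated lysines on histone tails. In plants, acetylated H4 is found mostly around the starts of transcribed genes, and drought is known to alter histone acetylation at stress genes. A peak caller lists stretches where the sequenced fragments pile up above the local background, and it joins stretches that lie close together, so whether a stretch is listed as 1 broad peak or as several depends on where the signal passes the calling threshold.

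The study compared leaves of Hanyou73, a hybrid rice bred to use less water and withstand drought, at the grain filling stage. All plants were of this cultivar, one group well watered and the other drought-stressed, and chromatin was precipitated with an antibody against H4K5ac in 2 libraries per condition. The data are 1 peak list per condition, so no value below has a replicate error, and the sequencing depth is unknown. The labels do not say whether the libraries of a condition came from separate plants. Whether a longer list or a broader peak came from the plants or from the depth of the libraries cannot be told apart.

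Division went with width. The divided peaks had a median width of 1174 bp (interquartile range 899 to 1459 bp, range 339 to 2733 bp), against 611 bp (354 to 795 bp) for all well-watered peaks. Of the 497, 326 (65.6%) were among the widest 10% of the list and 464 (93.4%) were wider than its median. The regions were thus broad as a group, although 31 of them were under 600 bp wide. The share of peaks that were divided was 0.222% under 600 bp, 2.02% of those from 800 to 999 bp, 5.80% from 1000 to 1199 bp, 15.7% from 1200 to 1499 bp and 29.7% of the 347 peaks of 1500 bp or more (Wilson 95% interval 25.1% to 34.7%). Such intervals describe counting error alone, with each peak taken as independent of the next. The lists also set a floor: no drought-stressed peak was shorter than 145 bp and no gap between such peaks was shorter than 146 bp, so a peak needs at least 436 bp to hold 2 whole fragments. Divided peaks narrower than that had fragments that ran past their ends.

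**Figure D1:**
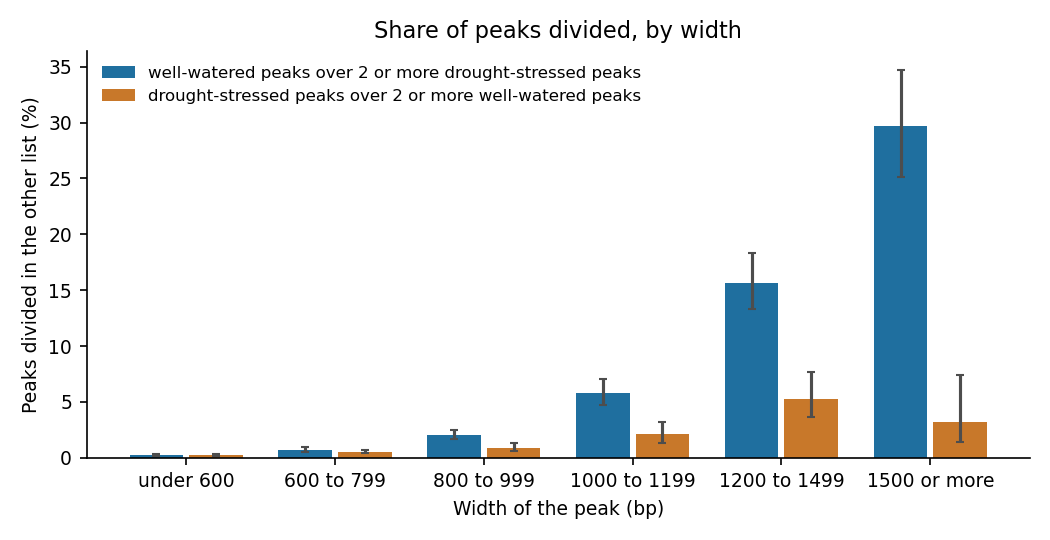
Share of peaks divided in the other list (y axis, %) by width of the peak (x axis, bp), for well-watered peaks over 2 or more drought-stressed peaks (blue) and the reverse (orange). Error bars are Wilson 95% intervals, which cover counting error only. The blue bars climb from 0.222% to 29.7%, while the orange ones reach 5.30% at 1200 to 1499 bp and stand at 3.25% in the widest class.

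The pieces were narrow. The 1010 fragments, each belonging to 1 divided peak only, had a median width of 392 bp (interquartile range 235 to 582 bp, range 145 to 2003 bp), against 571 bp for all drought-stressed peaks. In the 482 peaks with 2 fragments, the wider fragment had a median of 558.5 bp and the narrower one of 263.5 bp. The 2 fragments were seldom of equal width: the narrower fragment measured a median of 57.8% of the wider (interquartile range 36.5% to 76.8%). It was at least 50% as wide in 291 of them (60.4%) and under 25% as wide in 45 (9.34%). The left fragment was the wider in 242, the right in 238, and 2 had fragments of equal width. In 164 of the 497 divided peaks (33.0%) the narrowest fragment was under 200 bp, close to the shortest peaks of the list. Of all 26063 drought-stressed peaks, 23743 were at least 200 bp wide, but taking the narrowest of several fragments raises the share by itself. Among drought-stressed peaks over 2 or more well-watered ones, the narrowest fragment was under 200 bp in 56 of 155 (36.1%).

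The gaps were short as well. The 513 gaps between fragments had a median of 203 bp (order-statistic 95% interval 196 to 214 bp, interquartile range 168 to 269 bp), starting at 146 bp, the shortest distance between any neighbouring drought-stressed peaks. Of them, 247 (48.1%) were under 200 bp, 417 (81.3%) were under 300 bp and 14 reached 500 bp or more, up to 817 bp. A gap took up a median of 19.2% of the divided peak. Gaps were somewhat longer in wider peaks, with a median of 178 bp in those under 600 bp and 240 bp in those of 1500 bp or more. A gap has to lie inside the peak, so narrow peaks cannot hold long gaps and this rise is in part built in.

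The gaps lay mostly towards the middle of the divided regions, and the outermost edges were often uncovered as well. Of the 513 gap midpoints, 337 (65.7%, Wilson 95% interval 61.5% to 69.7%) lay in the central 33.3% of the peak, 86 on its left and 90 on its right, and none in the outermost 10% on either side. The shortest possible fragment already keeps a gap away from the ends, unless the fragment runs outside. The rule thus moves gap midpoints towards the middle by itself. How much of the central share comes from this was not tested. Along the peak in 10 equal parts, fragments covered on average 65.8% of the first, 85.5% of the second, 56.8% and 53.9% of the fifth and sixth, 83.3% of the ninth and 68.3% of the last. The parts most often kept were thus the second and the ninth, just inside each end. At the edges themselves, in steps of 2% of the width, an average of 42.1% was covered on the left and 44.6% on the right, less than the lowest value in the middle, 52.0%. Fragments reached neither end in 220 of 497 (44.3%). The midpoint was covered in 258 of 497 (51.9%). Fragments covered a median of 72.3% of the divided peak (interquartile range 61.7% to 79.0%, range 33.0% to 93.3%). Summed over all of them, 70.7% of the length was kept, 20.5% lay in gaps and 8.76% was cut from the ends.

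Undivided peaks of like width met a drought-stressed peak over most of their length. The comparison set held 2485 well-watered peaks with exactly 1 drought-stressed partner, 5 per divided peak. Their median width was 1136 bp (interquartile range 899 to 1293 bp), somewhat narrower at the upper end because few undivided peaks were as wide. A median of 90.5% of each was covered (interquartile range 81.2% to 96.0%), and the midpoint was covered in 2429 (97.7%). Their partner covered 59.5% of the first part and 56.1% of the last, against 97.8% of the fifth. It covered 86.1% of the second and 84.9% of the ninth, close to the 85.5% and 83.3% of divided peaks. Cover of these 2 parts was thus not particular to divided peaks. The divided peaks differed from them in the interior, by construction. Uncovered ends were more common in the undivided peaks, which is in part built in as well. Neither end was reached in 1398 of these 2485 (56.3%), against 220 of 497 divided peaks (44.3%). Of the summed length, 13.6% was cut from the ends of undivided peaks and 8.76% from those of divided ones. The cut at an end had a median of 18 bp in divided peaks (interquartile range -15.75 to 68 bp) and 33 bp in the undivided ones (0 to 91 bp), where a negative value means that the drought-stressed peak reached further out. From the first fragment's start to the last one's end, the divided regions kept a median of 96.1% of the well-watered width, while the partner of an undivided peak had a median of 91.3%. Fragments on either side of a gap have to spread over the peak, while the partner of an undivided peak can lie towards an end. The choice of regions thus favours covered ends in divided peaks by itself. How much of these differences at the ends comes from this was not tested. A fragment ran at least 100 bp past the end in 79 divided peaks (15.9%), against 100 of 2485 undivided ones (4.02%). A fragment that only touches the peak and lies mostly outside also counts as a fragment, so this difference is in part built into the choice. All fragments lay wholly inside the well-watered peak in 229 of 497 (46.1%).

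**Figure D2:**
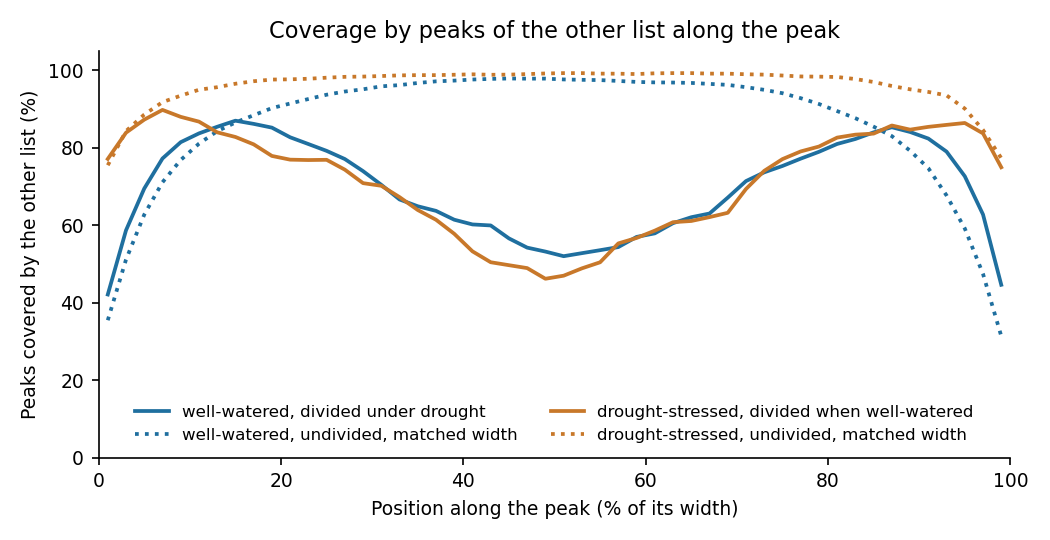
Mean share of peaks covered by peaks of the other list (y axis, %) along the width of the peak (x axis, % from its left end), in 50 bins. Solid lines are divided peaks (497 well-watered in blue, 155 drought-stressed in orange) and dotted lines undivided peaks of matched width (2485 and 775). Both solid lines dip in the middle, while the dotted lines are highest there, and the blue lines are low at both ends.

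The most divided region was a well-watered peak of 2183 bp at chr5:1547357-1549539. It met drought-stressed peaks of 245, 158, 169 and 299 bp, separated by gaps of 430, 230 and 198 bp, and its last 382 bp had no drought-stressed peak, so that 39.9% of it was covered. The next 4 by number of fragments, each with 3, divided quite differently. At chr5:28131447-28133802 (2356 bp), a central fragment of 1484 bp was flanked by fragments of 215 and 357 bp, and gaps of 152 and 171 bp left 86.3% covered. At chr1:37790472-37792802 (2331 bp), fragments of 465, 471 and 722 bp stood 319 and 215 bp apart. At chr5:16420703-16422957 (2255 bp), fragments of 475, 663 and 213 bp covered 58.9%, and at chr3:11919399-11921354 (1956 bp), fragments of 497, 720 and 332 bp covered 79.2%. The 15 peaks with 3 or 4 fragments were wide, with a median of 1741 bp (range 1130 to 2356 bp), a median of 60.2% covered and gaps of 148 to 430 bp.

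The 5 longest gaps, 623 to 817 bp, opened in peaks of 1361 to 1862 bp. At chr6:10743270-10745131, a well-watered peak of 1862 bp with a score of 812 met a fragment of 164 bp (score 33) and one of 548 bp (score 550), 817 bp apart. At chr12:13115388-13116984 (1597 bp), fragments of 589 and 279 bp at the ends left 759 bp between them. In the third, at chr4:19399165-19400774 (1610 bp, score 42), the gap measured 719 bp. The other two were at chr3:21419444-21421124 (632 bp of 1681 bp) and chr4:12538215-12539575 (623 bp of 1361 bp). In the other 4 the fragments reached to within 78 bp of both ends, while at the first one, on chromosome 6, the left 333 bp was also uncovered.

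The shortest gaps measured 146 bp, and the 5 widest peaks with such a gap were 76.5% to 86.5% covered. At chr2:25392192-25393681 (1490 bp), fragments of 586 and 607 bp had similar scores of 566 and 478. At chr4:33738686-33739990 (1305 bp), fragments of 774 and 385 bp covered 86.5%. The other three with this shortest gap and the greatest widths were at chr3:27890316-27891841, chr5:4164218-4165676 and chr1:28303247-28304676, with 76.5% to 79.0% covered. The widest divided peak of all, 2733 bp at chr6:15070603-15073335, was picked after its values were seen. It fell into nearly equal pieces of 1171 and 1442 bp across a gap of 172 bp, with 93.3% covered.

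The regions with the least left were short and low in score. At chr2:30237615-30238613, a peak of 999 bp (score 98) met fragments of 147 and 183 bp, both with a score of 35, which covered 33.0% of it and neither of its ends. In the other 4 of lowest cover, at chr3:11780988-11781470, chr12:27492097-27492963, chr4:21880599-21881286 and chr1:20033890-20034788, 33.1% to 38.0% was covered. In each of these 4 the left fragment lay partly outside the peak, by 92 to 298 bp.

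**Figure D3:**
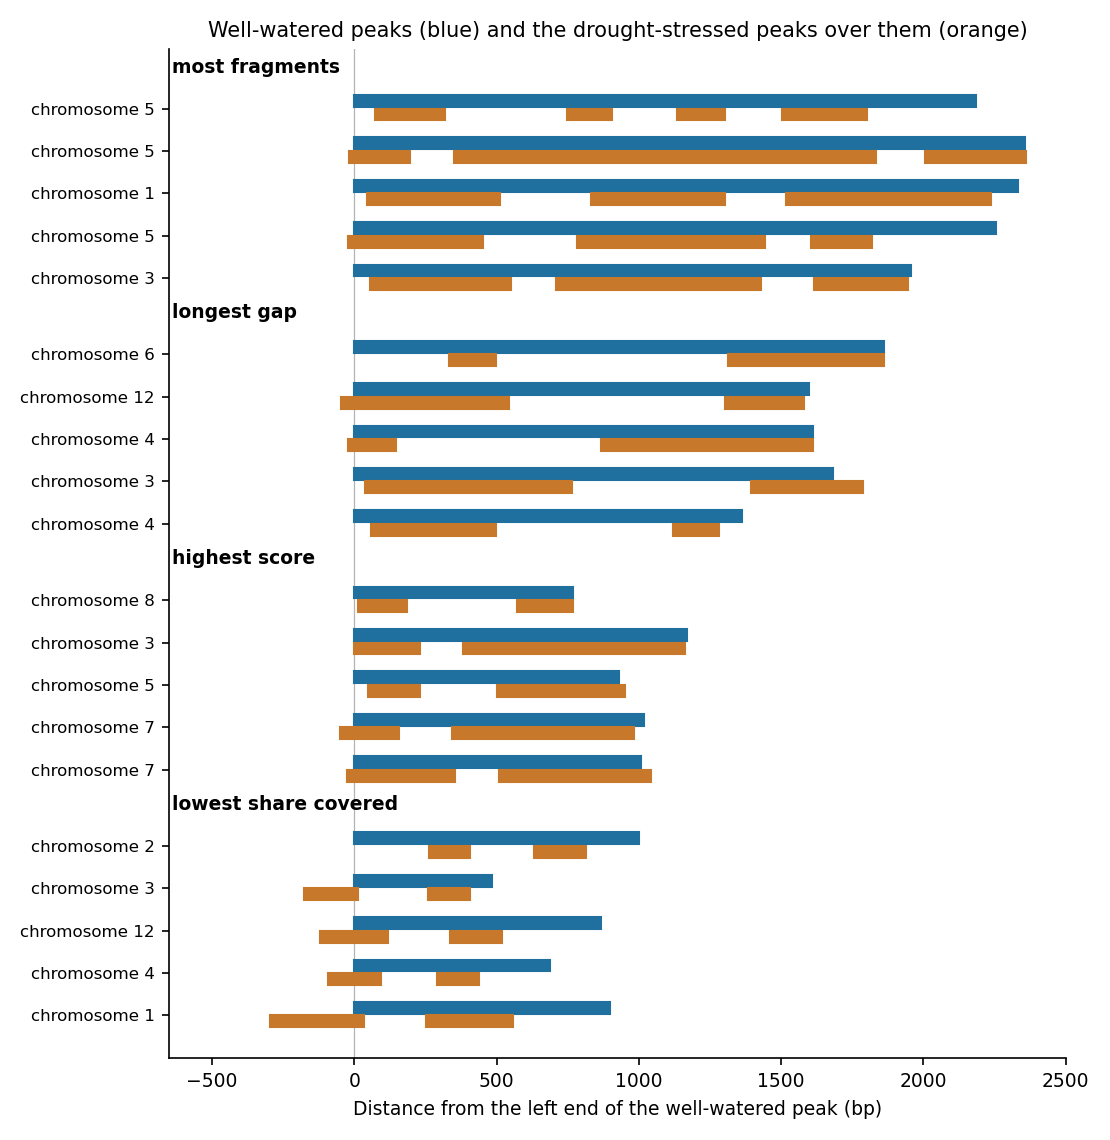
Maps of 20 divided well-watered peaks (blue bars) and their drought-stressed fragments (orange bars) against distance from the left end of the well-watered peak (x axis, bp), drawn to scale. The rows are the 5 peaks with the most fragments, the longest gap, the highest score and the lowest share covered. In 4 of the 5 longest-gap rows the outer ends of the orange bars lie within 78 bp of the blue bar's ends or past them, and in the lowest-share rows 4 of 5 left fragments start outside the blue bar.

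The scores of the lists, given by the submitters for each peak on a scale that is not stated, were used within each list only. Divided peaks were low in score for their width. Their median well-watered score was 284 (interquartile range 149 to 649), a median percentile of 43.3 in their list, against 596 (330 to 1007) and a percentile of 61.6 in the undivided peaks of matched width. Among well-watered peaks of at least 1000 bp, 116 of 549 (21.1%, 17.9% to 24.7%) in the lowest 20% by score were divided and 73 of 548 (13.3%) in the next 20%, against 6.74%, 9.67% and 7.83% in the remaining ones. The median width of these classes lay between 1119 and 1216 bp. Undivided peaks matched on score as well as width (median score 338) had a median of 88.6% covered.

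Fragments were also low in the drought-stressed list. Their median score was 101, against 344 for that whole list. Set beside the 200 other drought-stressed peaks nearest in width, a fragment stood at a median percentile of 30.3 for its score. At least 1 fragment scored below the list median in 466 of 497 regions (93.8%), and all of them did in 344 (69.2%). The reverse case was alike, at 146 of 155 (94.2%) and 114 of 155 (73.55%), with its fragments ranked in the well-watered list. Of all 26063 drought-stressed peaks, 13022 scored above their list median, as did 14383 of all 28794 well-watered peaks. Asking for at least 1 low fragment among several raises the share by itself, and asking it of all fragments lowers it. Fragments were also narrow, and these shares were not matched on width. With both lists limited to peaks above their median score, 30 well-watered peaks were divided and 9 in the reverse case. In peaks with 2 fragments the higher-scored one had a median of 198.5 and the lower-scored one of 66, and the wider fragment had the higher or an equal score in 378 of 482 (78.4%).

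Some strongly scored peaks were divided too. The highest was at chr8:17916556-17917324, a peak of 769 bp with a score of 7338 that met fragments of 171 bp (score 380) and 196 bp (score 4314) across a gap of 389 bp. At chr3:13386957-13388125 (score 6756), a fragment of 232 bp with a score of 87 stood 150 bp from one of 780 bp with a score of 4051. Next in score were chr5:1304489-1305419 (score 4139), chr7:15263369-15264385 (3963) and chr7:9703028-9704035 (3086). In each of these 5 the wider fragment carried the higher score, and the other scored from 85 to 380.

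**Figure D4:**
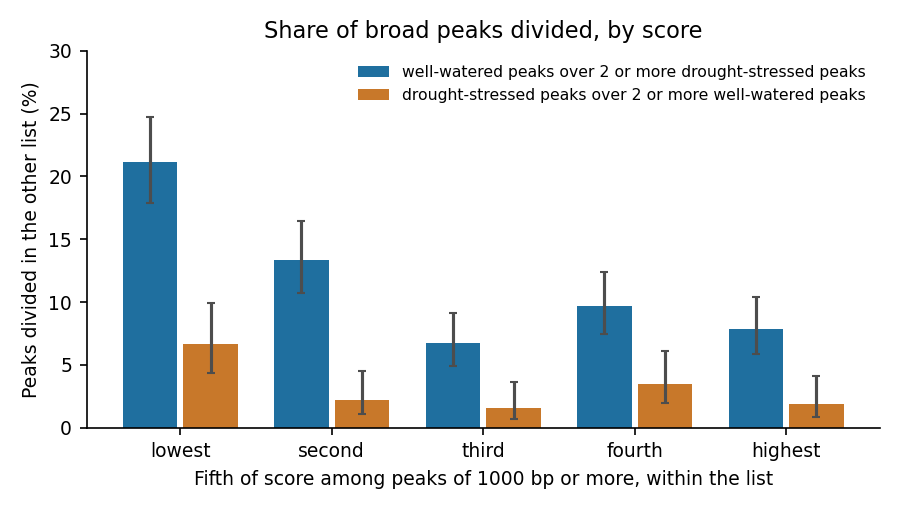
Share divided in the other list (y axis, %) among peaks of at least 1000 bp, in 5 equal classes of score within their own list (x axis, lowest to highest), for well-watered peaks (blue, 548 or 549 a bar) and drought-stressed peaks (orange, 315 or 316 a bar). Error bars are Wilson 95% intervals. The lowest class stands highest in both, at 21.1% and 6.65%.

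Divided peaks were found on all 12 chromosomes. Chromosome 1 had the most, 83, which was 2.07% of its peaks, and chromosome 11 the fewest, 19 (1.15%). Among peaks of at least 1000 bp the share ran from 8.04% on chromosome 8 (95% interval 5.01% to 12.7%) to 15.3% on chromosome 1 (12.1% to 19.3%), and the intervals of those chromosomes overlapped narrowly. Along the chromosomes, cut into 10 equal parts, 8.53% to 13.4% of such peaks were divided, with intervals that all overlapped. The regions were mostly solitary: the nearest other divided peak lay a median of 204173 bp away, and 16 of 497 (3.22%) had one within 10 kb.

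The closest divided peaks were neighbours on chromosome 5, from 975371 to 975830 and from 976104 to 976668, 273 bp apart. The next closest lay 2693 bp apart on chromosome 3, 4018 bp apart on chromosome 1 and 4828 bp apart on chromosome 7. Groups of 3 were found at chr1:33225274-33245418, with peaks of 1061, 506 and 1101 bp that lay 8161 and 9316 bp apart, and at chr5:16420703-16443982, with peaks of 2255, 2071 and 1139 bp that lay 7908 and 9907 bp apart. The 1 Mb windows with the most were both on chromosome 1, from 30 to 31 Mb (6 of 132 peaks) and from 37 to 38 Mb (6 of 128). Divided peaks had nearer neighbours than undivided peaks of matched width: the nearest well-watered peak was a median of 4022 bp away (95% interval 3632 to 4514 bp), against 5076 bp (4934 to 5242 bp), and 4047 bp for the whole list.

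The reverse case was rarer and its regions were smaller. Of 26063 drought-stressed peaks on the same chromosomes, 155 (0.595%) overlapped 2 or more well-watered peaks, 154 of them with 2 and 1 with 3. Their median width was 795 bp (interquartile range 587.5 to 1098 bp). Division in the reverse direction also went with width, up to 5.30% of the 472 drought-stressed peaks from 1200 to 1499 bp (3.61% to 7.70%), against 15.7% of well-watered peaks of that width (13.3% to 18.3%). Under 600 bp the shares were close in both directions, at 0.280% (0.206% to 0.381%) and 0.222% (0.157% to 0.315%). As each condition has 1 list, these intervals describe the lists and do not test a difference between conditions.

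In the reverse case a median of 73.2% of the peak was covered, in peaks that were narrower than the divided well-watered ones. At like width the covered share was higher in the reverse case, with medians of 77.8% against 69.6% from 800 to 999 bp, 81.8% against 73.5% from 1000 to 1199 bp, 83.2% against 75.2% from 1200 to 1499 bp and 90.4%, over 5 peaks, against 74.1% from 1500 bp. Undivided peaks of these widths differed in the same direction. Their medians, in the same order, were 99.5% against 89.2%, 99.8% against 89.6%, 99.6% against 91.5% and 100% against 92.65%. The difference was thus not particular to divided peaks. Gaps in the reverse case had a median of 172.5 bp (165 to 180 bp) and took up a median of 23.4% of the peak. Of 156 gap midpoints, 97 (62.2%) lay in the central 33.3%, and the narrower of 2 fragments measured 55.5% of the wider. Gaps start slightly lower there, as the well-watered list begins at 140 bp between neighbours and 139 bp in width. At the ends, the well-watered fragments reached both ends of the drought-stressed peak in 86 of 155 (55.5%), against 66 of 497 (13.3%) for drought-stressed fragments over well-watered peaks. The cut at an end had a median of -34.5 bp, outward, in place of 18 bp. Undivided drought-stressed peaks of matched width had a median of -20 bp, so outward-reaching well-watered peaks were not limited to the reverse case.

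The longest reverse gap, 488 bp, was at chr3:6742919-6744404, where a drought-stressed peak of 1486 bp spanned well-watered peaks of 292 and 763 bp. Next came chr5:17846587-17847960 (421 bp), chr10:7713314-7714547 (413 bp), chr11:9746489-9747045 (390 bp) and chr2:23773054-23774132 (368 bp). The highest-scored one was at chr3:13458571-13459336, 766 bp with a score of 1972, over well-watered peaks of 289 and 299 bp that scored 1345 and 2043. After it came chr2:28291110-28291995 (1559), chr9:4723865-4724854 (1397), chr2:17781018-17781801 (1259) and chr3:33894154-33895449 (1219). Reverse cases were low in score as a group, at a median percentile of 24.8 in the drought-stressed list, against 59.8 in undivided ones of matched width.

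The lists can also be compared gap by gap. Of the 438 gaps under 200 bp between neighbouring drought-stressed peaks, 247 (56.4%, 51.7% to 61.0%) lay inside 1 well-watered peak. Of the 562 such gaps in the well-watered list, 111 (19.8%, 16.7% to 23.2%) lay inside 1 drought-stressed peak. The shares were 35.2% and 6.05% for gaps of 200 to 299 bp, 16.7% and 1.5% for 300 to 399 bp, and 8.59% and 0.875% for 400 to 499 bp. Gaps of 500 to 999 bp lay inside a peak of the other list in 14 of 885 and 0 of 1097 cases, the latter allowing a share of up to 0.349% (upper Wilson bound). These are the gaps that define the divided peaks, so the shares restate the choice by gap length and, with 1 list per condition, are no test. The well-watered list covered more sequence in all, and its part in this difference was not tested.

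**Figure D5:**
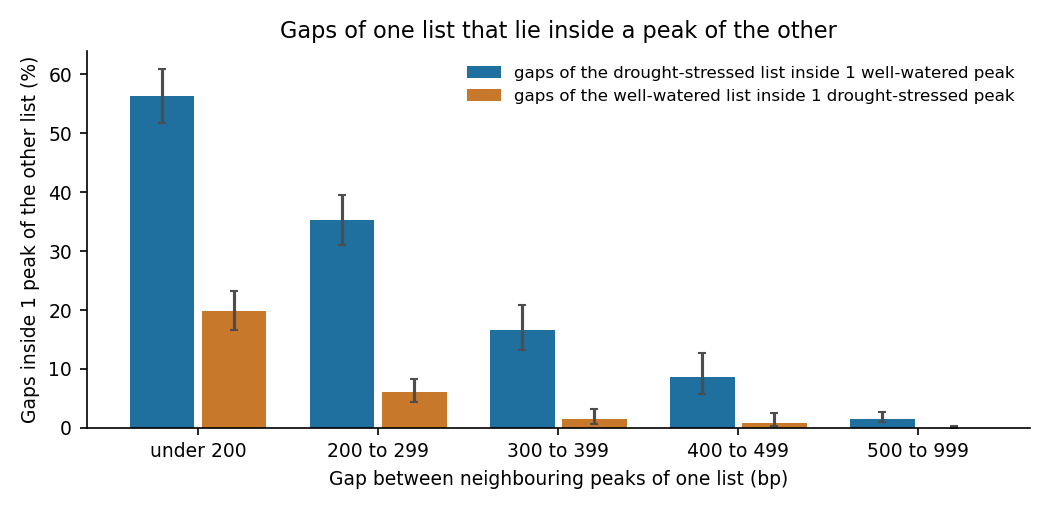
Share of the gaps between neighbouring peaks of one list that lie inside 1 peak of the other list (y axis, %), by length of the gap (x axis, bp). Blue bars are gaps of the drought-stressed list inside a well-watered peak and orange bars the reverse, with Wilson 95% intervals that cover counting error only. Blue stands above orange at each length, from 56.4% against 19.8% under 200 bp.

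A few regions were staggered and counted in both directions. In 18 of the 497, a fragment also overlapped a second well-watered peak and so was itself a divided drought-stressed peak. An example, picked after its values were seen, was chr9:21132693-21134206 (1514 bp), whose right fragment of 1200 bp ran 860 bp past it. Seen from the other side, 18 of the 155 reverse cases (11.6%) had a fragment that also overlapped a second drought-stressed peak. These 18 were kept in the reverse-case values above and include the furthest outward end there, -1348 bp. The edge of the rule held few cases. The smallest overlap was 1 bp, at chr9:5153740-5154260, where a fragment of 160 bp ended on the first base of the peak. The next were 4 bp at chr2:22229662-22230501 and 8 bp at chr1:35328307-35329659. Overlaps under 50 bp decided 19 of the 497. Just outside the rule, 20 of 23937 undivided peaks had a further drought-stressed peak starting or ending less than 50 bp away, none of them less than 10 bp.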

How the data were processed

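Each condition had 1 deposited peak list, to which both of its libraries point. BWA, SAMtools, MACS2 and deepTools are named, without versions or settings, per the submitters' processing notes. How replicates were combined, whether there was an input control and which genome build was used were not given in the sources used here. Peak starts and ends are the authors' positions, printed 1-based. The score is the authors' value per deposited peak, on an unstated scale. As no build is named, no gene and no sequence was assigned to a peak.

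Overlaps were computed with Python 3.11.15, numpy 2.4.6, pandas 2.3.3 and scipy 1.17.1, and the counts were checked with bedtools 2.31.1. Widths are end minus start. Each divided peak was given the 5 unused undivided peaks nearest in width, widest first. On simulated data, 200 of 200 planted divisions of the well-watered list were recovered. The planted pieces all lay inside their peak, so this checks the overlap code only and not fragments that run past an end. Regions were named by fixed extremes (5 each of most fragments, longest gap, shortest gap, highest score and lowest share covered, and 5 each of longest gap and highest score in reverse), except where stated. The regions and measures were chosen with earlier results of these data known. No test between conditions was possible with 1 list each.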

Additional observations from a re-analysis of the deposited data

How the results depend on the processing

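Of 65 values recomputed under other settings, 46 stayed within the interval of the reported value, or within 1.5 times a reported count. The rest follow. With only peaks above the median score of their list, 30 well-watered and 9 drought-stressed peaks were divided, with a median width of 1334 bp, 81.2% covered, gaps of 170 bp and 90% of gap midpoints in the central 33.3%. Joining neighbours up to 300 bp apart, chosen after the data were seen, gave 275 and 48, 1466 bp, 64.3%, 372.5 bp and 76.2%. Of these 275, 83 had the same start and end as a peak divided before joining. A peak that joining had widened could not be matched, so how many of the others were newly divided is not known. With peaks of at least 200 bp only, 100 drought-stressed peaks were divided, and the well-watered ones (341) had a median width of 1266 bp, 74.8% covered and 73.1% central gaps. With equal numbers of peaks, 99 drought-stressed peaks were divided. Requiring at least 50% of a fragment inside gave 70.8% central gaps. Matching on width and score gave 88.6% covered in undivided peaks. Joining up to 100 bp changes nothing, as no neighbours are that close. Joining up to 145 bp, also added later, gave both lists the same shortest gap, with 520 well-watered and 133 drought-stressed peaks divided. Well-watered divided peaks outnumbered the reverse from 3.19 to 5.73 times over these settings. Equal numbers of peaks (4.94 times) and joining up to 145 bp (3.91 times) altered the well-watered list alone. Both reduced the well-watered peaks that could serve as fragments in the reverse case, and left the drought-stressed fragments as they were. All settings reuse the same lists, so the range is no replicate error.

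The depth behind the lists is unknown, and its part in the division of peaks was not tested. No paired analysis was possible because both replicates of a condition point to 1 common list, and for that reason no replicate was left out.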
